A study of Mus musculus with 20 samples.

Results

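The secreted Wnt antagonists described here are 7 genes taken by their symbols from a table of 21705 genes: Sfrp1, Sfrp2, Frzb, Sfrp4, Sfrp5, Dkk3 and Wif1. They were chosen by earlier values of these same libraries, in which Sfrp1, Sfrp2 and Frzb were higher in hearts without Acsl1. The differences between genotypes below are therefore descriptions of the values that led to the choice, and carry no test. Of the 7 genes, 6 passed the filter on low values (at least 10 in at least 5 libraries, which 13548 genes passed), and Sfrp4 did not.

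RNA of heart ventricles from male C57Bl/J6 mice was sequenced to study the early response of the heart to the loss of Acsl1, the long-chain acyl-CoA synthetase that prepares fatty acids for oxidation, and the part that the growth kinase mTOR plays in it. The 20 libraries fall into 4 groups of 5. Acsl1H-/- mice lost the gene in the heart after tamoxifen (called knockout), and their Acsl1flox/flox littermates kept the floxed gene (called control). All mice of both genotypes were given tamoxifen at 75 mg/kg for 4 days at an age of 6 to 8 weeks, and hearts were taken 2 weeks later. Within each genotype, 1 group was injected daily for 2 weeks with rapamycin, an inhibitor of mTOR, at 1 mg/kg, and the other with vehicle. The labels name neither the recombinase nor the promoter that drives it, so effects of the recombinase and of Acsl1 loss cannot be told apart.

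Wnt proteins are secreted signals that bind Frizzled receptors and the coreceptors Lrp5 and Lrp6, and one branch of the pathway stabilizes beta-catenin, which then acts in the nucleus with TCF and LEF factors. Secreted antagonists limit this outside the cell. The secreted Frizzled-related proteins (Sfrp1, Sfrp2, Sfrp4, Sfrp5 and Frzb) carry a cysteine-rich domain like that of Frizzled and bind Wnts, Wif1 binds Wnts through a domain of its own, and proteins of the Dickkopf family act on the Lrp coreceptors, although Dkk3 is the divergent member whose binding partner is less clear. In the adult heart the pathway is known mainly for its part in scar formation and in fibroblasts after injury.

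Values are gene-level estimates that the authors scaled to a common upper quartile of about 1000 per library, so they are not counts. The steps between low values imply 11.5 to 21.1 M reads per library. Acsl1 itself was low in every knockout library, with means of 12.5% of control under vehicle and 9.68% under rapamycin. Control vehicle libraries 1 and 3 stood apart in an earlier look at all genes, and results were also computed without them. The label of the tissue is ventricle, and the cardiomyocyte genes Myh6, Tnnt2, Tnni3 and Myl2 were abundant in every library. Atrial markers were present too, in unequal amounts: across the 20 libraries the lowest value of Myl7, an atrial myosin light chain gene, was 3.98 and the highest 10265.

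Sfrp1, Sfrp2 and Frzb, which bind Wnt proteins, had mean values in knockout hearts that were 1.96, 2.56 and 2.96 times those in control hearts under vehicle. Under rapamycin the ratios of the means were 1.67, 1.95 and 1.58. Sfrp1 was the most abundant of the 3 in each group, with or without division by transcript length.

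Sfrp1 (Entrez gene 20377) had values of 337, 383, 306, 483 and 489 in control vehicle libraries 1 to 5, and of 725, 874, 596, 651 and 1073 in knockout vehicle libraries 1 to 5. Every knockout library lay above every control library under vehicle. Under rapamycin it had values of 467, 486, 567, 598 and 550 in control libraries and 551, 766, 718, 1002 and 1416 in knockout libraries. There the groups overlapped by a single library, since knockout rapamycin 1 lay below control rapamycin 3 and 4. The difference between genotypes was 0.96 on the log2(value + 1) scale under vehicle (SE 0.21) and 0.67 under rapamycin (SE 0.21).

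Sfrp2 (Entrez gene 20319), which besides Wnts is known to act on the processing of procollagen, had values of 67.0, 97.7, 106, 168 and 84.2 in control vehicle libraries and 251, 298, 167, 158 and 465 in knockout vehicle libraries. The groups met only at their edges: control vehicle 4 lay just above knockout vehicle 3 and 4. Under rapamycin, control libraries 1 to 5 were at 125, 109, 78.6, 97.3 and 206 and knockout libraries at 207, 280, 136, 175 and 406. Control rapamycin 5 was high for its group and reached into the knockout range. The log2 difference was 1.30 under vehicle (SE 0.33) and 0.93 under rapamycin (SE 0.33).

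Frzb (Entrez gene 20378), first described in cartilage and able to bind Wnts, had values of 123, 66.7, 83.5, 155 and 115 in control vehicle libraries and 403, 444, 145, 170 and 443 in knockout vehicle libraries. The knockout vehicle libraries fell into 3 high values and 2 that lay next to the highest control. Under rapamycin, control libraries were at 292, 141, 95.4, 141 and 251 and knockout libraries at 284, 277, 225, 254 and 415. Here control rapamycin 1 and 5 lay within the knockout range. The log2 difference was 1.46 under vehicle (SE 0.34) and 0.75 under rapamycin (SE 0.34).

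**Figure D1:**
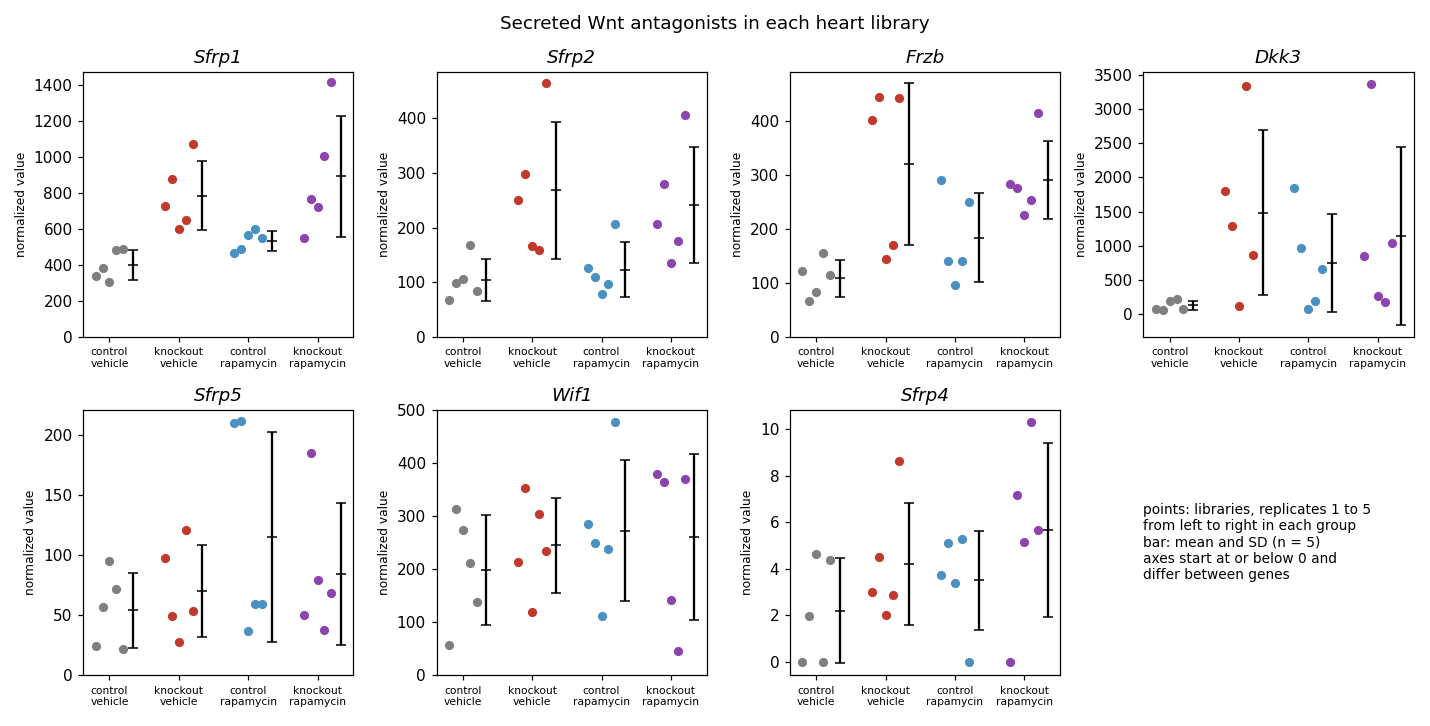
Normalized value (vertical axis, linear, a scale of its own for each gene) of the 7 genes in each of the 20 libraries, by group on the horizontal axis; points are libraries and bars give the mean and SD (n = 5). Sfrp1 is higher in every knockout vehicle library (596 to 1073) than in any control vehicle library (306 to 489), Dkk3 spreads from 109 to 3346 within knockout vehicle alone, and Sfrp4 stays at or below 10.3.

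The difference between genotypes could be set beside the sequencing pool, since the labels give 4 pools, all of which contained 1 or 2 libraries from each of the groups. The names of the library columns also carry a sequencing lane, which matches the pool for every library. Pool and lane therefore cannot be told apart. Under vehicle, the log2 difference of Sfrp1 was 0.84, 1.19, 1.38 and 0.41 in pools 1 to 4, that of Sfrp2 was 1.23, 1.60, 1.39 and 0.90, and that of Frzb was 1.54, 2.72, 1.59 and 0.56. All of these were above 0, and pool 4 gave the smallest value for each gene. Under rapamycin the values were 0.71, 0.03, 0.34 and 1.11 for Sfrp1, 1.15, 1.00, 0.78 and 0.37 for Sfrp2, and -0.07, 1.00, 1.23 and 0.37 for Frzb. The difference was thus near 0 for Sfrp1 in pool 2 and for Frzb in pool 1, where each group held 1 or 2 libraries.

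Of the 6 tested genes, 1 (Sfrp1) had groups that did not overlap under vehicle with knockout higher, as did 1.45% of all genes tested. Under rapamycin none of the 6 did, against 0.332% of all genes tested. Counted in either direction, 2.32% of all genes under vehicle and 0.878% under rapamycin had groups that did not overlap. Since these comparisons led to the choice of the genes, nothing is read from either count. For all 6 genes the difference under rapamycin was below that under vehicle. The share of all genes for which this holds was not computed, and nothing is read from this direction either. Over all genes tested, the median difference was 0.07 under vehicle and -0.02 under rapamycin. By limma, 31.8% and 2.97% of them had an unadjusted p under 0.05. The gap, rapamycin less vehicle, was -0.29 (SE 0.30) on the log2 scale for Sfrp1, -0.37 (SE 0.47) for Sfrp2, -0.71 (SE 0.49) for Frzb, -0.72 (SE 0.77) for Sfrp5, -2.47 (SE 1.32) for Dkk3 and -0.72 (SE 0.78) for Wif1. Whether the genotype difference depends on rapamycin was not tested for these genes, because the vehicle comparison is contained in it.

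Promoter sequences were at hand for 4 of the 7 genes in the RefSeq table of build GRCm38.p6, namely Sfrp2, Frzb, Sfrp5 and Wif1. The 250 bases before the start of Sfrp2 and Frzb are shown because these genes varied together from library to library, as described further on. They are given 5′ to 3′ on the strand of the gene, with matches to CTTTG, the core of the site bound by TCF and LEF factors, in capitals on either strand (CAAAG is the same site read from the other strand).
Sfrp2, chr3:83766071-83766320, plus strand: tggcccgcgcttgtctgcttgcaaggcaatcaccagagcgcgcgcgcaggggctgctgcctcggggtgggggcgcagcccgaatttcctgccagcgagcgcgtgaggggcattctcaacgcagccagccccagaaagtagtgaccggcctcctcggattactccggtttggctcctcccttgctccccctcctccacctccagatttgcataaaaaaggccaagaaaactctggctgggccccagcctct
Frzb, chr2:80447397-80447646, minus strand: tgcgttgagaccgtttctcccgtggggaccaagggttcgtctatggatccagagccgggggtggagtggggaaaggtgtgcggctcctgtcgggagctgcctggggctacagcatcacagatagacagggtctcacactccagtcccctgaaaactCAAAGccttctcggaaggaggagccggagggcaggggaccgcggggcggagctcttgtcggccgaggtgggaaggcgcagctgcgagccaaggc

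Frzb held 1 match to CTTTG, 94 bases before its start, and Sfrp2 held none. Wif1 also held 1 match and Sfrp5 none, and 48.6% of all 32851 mouse promoters of this length hold at least 1. A match to CAGAC, a core bound by Smad proteins, was found once in Sfrp2 and once in Sfrp5 and in neither Frzb nor Wif1, beside 42.2% of all promoters. The E-box CANNTG, which reads partly the same on both strands, was absent from the Sfrp2 stretch and present once in Frzb and Sfrp5 and at 2 positions in Wif1, beside 66.2% of all promoters. TATAAA was found only in Wif1, beside 12.4% of all promoters. The GC content was 63.6% for Sfrp2 and 64.4% for Frzb, against a median of 52.4%. These matches describe letters in the window and were not tied to binding.

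Dkk3 (Entrez gene 50781), the divergent Dickkopf protein, had the largest spread of the 7 genes. It had values of 73.7, 62.8, 181, 221 and 74.0 in control vehicle libraries and 1799, 1291, 109, 3346 and 867 in knockout vehicle libraries. All knockout vehicle libraries but the third lay above the controls. With rapamycin, control libraries were at 1850, 961, 64.0, 189 and 658 and knockout libraries at 847, 3372, 261, 180 and 1043. High and low libraries occurred in both genotypes there, and the groups overlapped over most of their range. The ratio of the means, knockout over control, was 12.1 under vehicle and 1.53 under rapamycin, and the log2 difference 3.13 (SE 0.93) and 0.66 (SE 0.93). Under vehicle it was 3.81, 4.34, 0.77 and 5.48 in pools 1 to 4, and under rapamycin 0.87, 0.99, 2.01 and -0.60. Without control rapamycin library 3 the difference under rapamycin was -0.023, and with robust weights it was 1.58.

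Sfrp5 (Entrez gene 54612), a Wnt-binding protein also known as a product of fat tissue, had values of 24.6, 56.9, 95.1, 71.5 and 21.8 in control vehicle libraries and 97.3, 49.5, 27.8, 121 and 53.6 in knockout vehicle libraries. With rapamycin, control libraries were at 209, 211, 37.0, 59.1 and 58.7 and knockout libraries at 49.6, 185, 79.0, 37.8 and 68.2. The genotypes overlapped in both arms, and a few libraries stood far above the rest, namely control rapamycin 1 and 2 and knockout rapamycin 2. The log2 difference was 0.40 under vehicle (SE 0.55) and -0.32 under rapamycin (SE 0.55). With 1 library left out it ranged from 0.14 (without control vehicle 5) to 0.68 (without knockout vehicle 3) under vehicle, and from -0.66 (without knockout rapamycin 2) to -0.011 (without control rapamycin 2) under rapamycin.

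Wif1 (Entrez gene 24117) had values of 55.8, 314, 274, 212 and 138 in control vehicle libraries and 213, 354, 119, 304 and 234 in knockout vehicle libraries. In the rapamycin arm, control libraries were at 286, 250, 111, 238 and 479 and knockout libraries at 380, 364, 143, 44.7 and 370. The genotypes overlapped in both arms. The log2 difference was 0.43 under vehicle (SE 0.55) and -0.29 under rapamycin (SE 0.55), and both rested on single libraries: the first was 0.037 without control vehicle 1, and the second 0.25 without knockout rapamycin 4.

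Sfrp4 (Entrez gene 20379), another Frizzled-related protein, was listed at 0 in control vehicle libraries 1 and 4, control rapamycin 5 and knockout rapamycin 1. Its other values ran from 1.96 to 10.3, which is a few reads per library. At this depth no difference between groups could be made out, and no fold is given.

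Divided by the length of the merged exons of each gene in the GENCODE M21 annotation (GRCm38), the mean levels per kilobase in control vehicle hearts were 91.4 ± 19.1 for Sfrp1 (SD, n = 5), 86.6 ± 45.3 for Wif1, 52.2 ± 19.3 for Sfrp2, 36.4 ± 21.7 for Dkk3, 34.5 ± 10.97 for Frzb, 28.4 ± 16.5 for Sfrp5 and 0.524 ± 0.539 for Sfrp4. The gap between neighbours in this order was within the larger of their SDs, except that Sfrp4 was far below the others; Wif1 lay outside the SD of Sfrp2 but its own SD reached Sfrp2. In knockout vehicle hearts the order per kilobase was 441 ± 361 for Dkk3, 179 ± 44.0 for Sfrp1, 134 ± 62.3 for Sfrp2, 107 ± 39.2 for Wif1, 102 ± 47.7 for Frzb, 36.8 ± 20.1 for Sfrp5 and 1.01 ± 0.633 for Sfrp4. Dkk3 thus had the highest mean there, with a spread that covered Sfrp1, Sfrp2, Wif1 and Frzb. Under rapamycin, Sfrp1 was at 122 ± 12.6 in control and 204 ± 76.6 in knockout hearts, Dkk3 at 222 ± 213 and 340 ± 387, Wif1 at 119 ± 57.8 and 114 ± 68.1, and Sfrp2 at 61.5 ± 24.7 and 120 ± 53.1. The transcripts that the authors counted may differ in length from these.

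The effect of rapamycin averaged over both genotypes is the comparison that could be tested, since with 5 libraries in each group it is orthogonal to both genotype differences. None of the 6 genes changed with rapamycin by limma, either with Benjamini-Hochberg adjustment over 13548 genes or at an unadjusted p under 0.05, and of all genes tested 0.125% and 9.23% passed these thresholds. For Sfrp1 the log2 difference was 0.29 (SE 0.15, 95% interval -0.02 to 0.60, adjusted p = 0.561), and 8 of 10 rapamycin libraries lay above the vehicle median of their genotype. Its unadjusted p by limma was 0.0661. In 5 of 30 alternatives it was under 0.05 (0.0168 without knockout rapamycin 1 at the lowest, and 0.0215 with the replicate block). Adjusted p-values by limma ran from 0.337 to 0.891. A library left out makes the groups unequal, so in such fits the comparison is not fully orthogonal to the genotype differences that chose the genes. For Frzb it was 0.34 (interval -0.17 to 0.85, adjusted p = 0.660) and for Sfrp2 0.04 (interval -0.45 to 0.53, adjusted p = 0.962), each with 5 of 10 libraries above that median. The intervals of Sfrp5 (0.58, -0.23 to 1.38, adjusted p = 0.641), Dkk3 (0.76, -0.62 to 2.13, adjusted p = 0.702) and Wif1 (0.17, -0.64 to 0.98, adjusted p = 0.887) leave room for changes of more than 0.9 on the log2 scale, and with robust weights the difference of Dkk3 was 0.24.

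Within a genotype, rapamycin against vehicle shares libraries with the comparisons that chose the genes and is given as values alone. In control hearts the log2 difference was 0.44 for Sfrp1 (SE 0.21), 0.22 for Sfrp2 (SE 0.33), 0.70 for Frzb (SE 0.34), 2.0 for Dkk3 (SE 0.93), 0.94 for Sfrp5 (SE 0.55) and 0.53 for Wif1 (SE 0.55). All 5 control rapamycin libraries had more Sfrp1 than the median of control vehicle. In knockout hearts the log2 differences were 0.14, -0.14, -0.01, -0.48, 0.22 and -0.19 in the same order of genes.

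**Figure D2:**
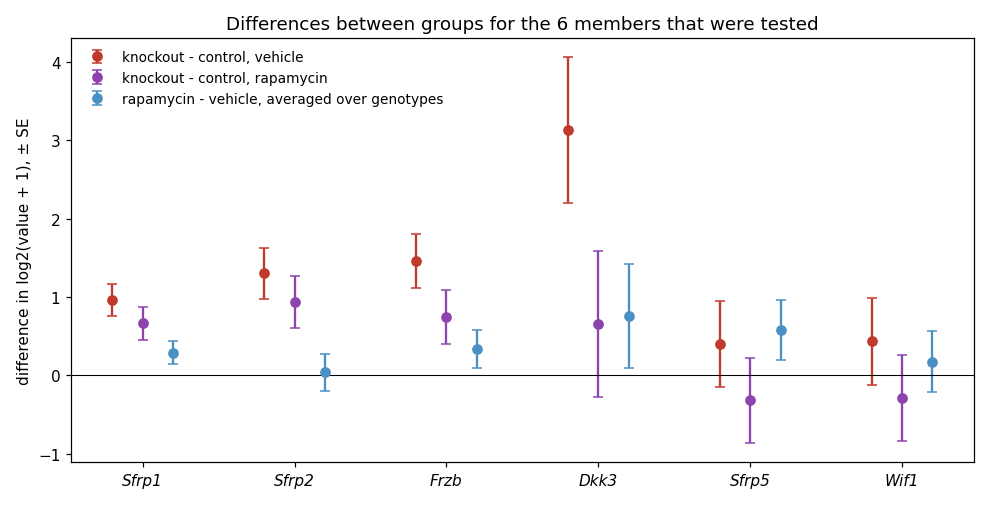
Difference in log2(value + 1) between groups (vertical axis; points are limma estimates and bars 1 SE) for the 6 tested genes on the horizontal axis, with the genotype difference under vehicle and under rapamycin and the rapamycin effect averaged over genotypes. Sfrp1, Sfrp2 and Frzb show genotype differences of 0.67 to 1.46 with SE of at most 0.34, and the difference of Dkk3 under vehicle, 3.13, has an SE of 0.93.

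Library-to-library variation inside the groups, which the choice of genes did not use, sorted the genes into sets. After the mean of its group was taken from each library's log2(value + 1), Sfrp1, Sfrp2 and Frzb followed the mean level of 14 fibroblast markers, and Dkk3 and Sfrp5 followed that of 5 atrial markers. These 12 relations were computed after the members' values had been seen. The permutations moved libraries freely within groups. Their p-values, and those of the pairs of members below, therefore do not allow for variation shared by same-numbered replicates. Marker lists of other cell types were not set against the members, so the sets are not shown to be particular to fibroblast or atrial markers. In bulk tissue, more cells of a type and more RNA per cell cannot be told apart.

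Sfrp1 varied with the fibroblast markers with r = 0.85 (permutation p = 0.00012, adjusted p = 0.00063 over 12 relations) and rho = 0.86 (permutation p = 0.00016) over 20 libraries, and r was 0.74 without the 2 libraries farthest from the median. Sfrp2 had r = 0.79 (permutation p = 0.00019, adjusted p = 0.00063), rho = 0.71 (permutation p = 0.00253) and r = 0.67 without the farthest pair. Frzb had r = 0.71 (permutation p = 0.00021, adjusted p = 0.00063), rho = 0.73 (permutation p = 0.0004) and r = 0.68 without the farthest pair. With pool means also removed, r was 0.87, 0.80 and 0.72 for these genes, and without control vehicle libraries 1 and 3 it was 0.84, 0.82 and 0.73. Each pool held 5 libraries, too few for a value of its own. Replicate means were not removed, although the fibroblast markers were highest in replicate 5 and lowest in replicate 3 of each group. Sfrp1 and Frzb were above their group mean in each replicate 5, and Sfrp2 in all but that of control vehicle. The part of replicate number in these relations was not tested. With the fibroblast markers, Dkk3 had r = 0.34 and rho = 0.30, Wif1 r = 0.33 and rho = 0.21, and Sfrp5 r = -0.03 and rho = -0.003 (permutation p = 0.185 and 0.228, 0.250 and 0.424, and 0.895 and 0.993; the lowest adjusted p was 0.248).

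Dkk3 varied with the atrial markers with r = 0.95 and rho = 0.93 (permutation p = 1e-05 for both, the smallest that the permutations can give, adjusted p = 0.00012), and r was 0.92 without the 2 libraries farthest from the median. Sfrp5 had r = 0.77 (permutation p = 0.00043, adjusted p = 0.00103), rho = 0.72 (permutation p = 0.00229) and r = 0.70 without the farthest pair. With pool means removed, r was 0.92 for Dkk3 and 0.80 for Sfrp5. Wif1 had r = 0.50 with the atrial markers (permutation p = 0.0292, adjusted p = 0.0584) and rho = 0.43 (permutation p = 0.0752), which missed the threshold after adjustment. Its r was 0.39 without the farthest pair, 0.61 with pool means removed (permutation p = 0.00268, unadjusted) and 0.58 without control vehicle libraries 1 and 3. For Sfrp1, Sfrp2 and Frzb, r with the atrial markers was -0.10, 0.35 and 0.45 and rho -0.15, 0.36 and 0.47 (permutation p between 0.0790 and 0.713).

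**Figure D3:**
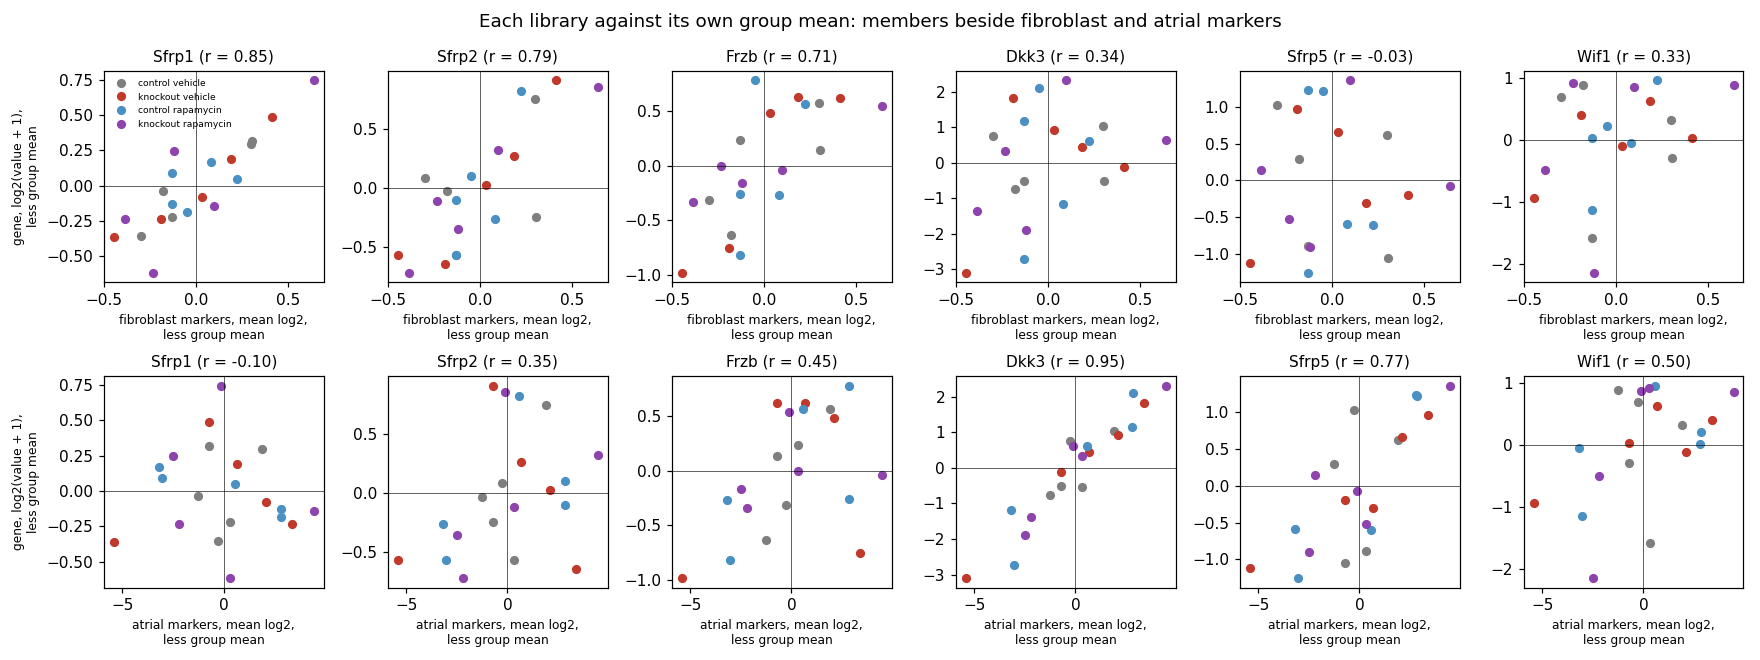
Each point is 1 of the 20 libraries, coloured by group; the horizontal axis gives the mean log2(value + 1) of the fibroblast markers (upper row) or atrial markers (lower row) and the vertical axis log2(value + 1) of the gene, both less the mean of the library's group. Points rise together for Sfrp1, Sfrp2 and Frzb in the upper row (r = 0.85, 0.79 and 0.71) and for Dkk3 and Sfrp5 in the lower row (r = 0.95 and 0.77).

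Among the 15 pairs of members, Sfrp5 and Dkk3 had r = 0.81 (permutation p = 8e-05, adjusted p = 0.0012 over 15 pairs) and rho = 0.83 (permutation p = 0.00012), with r = 0.77 without the 2 farthest libraries and r = 0.84 with pool means removed. Sfrp2 and Frzb had r = 0.72 (permutation p = 0.00118, adjusted p = 0.0065) and rho = 0.71 (permutation p = 0.00161), with r = 0.67 and 0.73 in the same checks. Sfrp2 and Wif1 had r = 0.59 (permutation p = 0.0113, adjusted p = 0.0425) and rho = 0.63 (permutation p = 0.0073), with r = 0.63 in each check. Dkk3 and Wif1 had r = 0.66 (adjusted permutation p = 0.0065), but rho = 0.54 missed the threshold (adjusted permutation p = 0.0989); r was 0.58 without the farthest pair and 0.78 with pool means removed. The other 11 pairs had adjusted p-values of 0.0658 or more. Sfrp1 had r = 0.55 with Sfrp2 and 0.44 with Frzb (adjusted permutation p = 0.0658 and 0.0786; rho = 0.48 and 0.46, adjusted permutation p = 0.131 and 0.115).

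The genes whose deviations were most like those of each member, among tested genes with a mean of at least 100, are given as a description, since they are the highest of many. For Sfrp1 they were Igfbp7, a secreted IGF-binding protein (r = 0.92), Gm13889 (0.90) and the collagen gene Col14a1 (0.88). For Sfrp2 they were Comp, a cartilage matrix protein (0.85), Prelp, a matrix proteoglycan (0.79), and dermatopontin, Dpt (0.78), which is itself on the fibroblast list. For Frzb they were Prelp (0.92), the sushi-repeat protein gene Srpx2 (0.85) and Cilp, a matrix protein of cartilage and of activated fibroblasts (0.85). Prelp was thus named for both Sfrp2 and Frzb, and its mean was 1461 in control vehicle, 2911 in knockout vehicle, 2530 in control rapamycin and 3189 in knockout rapamycin hearts. For Dkk3 the most alike genes were all atrial markers, namely the light chain genes Myl4 (0.96) and Myl7 (0.96) and sarcolipin, Sln (0.95). For Sfrp5 the nearest was Dkk3 itself (0.81), before Scrn1 (0.80) and Gm1078 (0.79). For Wif1 they were Cntn2, a contactin of nerve cells and the conduction system (0.88), the fetuin gene Ahsg (0.85) and fibromodulin, Fmod (0.77).

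Of 8 marker lists, the fibroblast list passed the test between genotypes in both arms, and the nerve and glia list under vehicle; the atrial list did not pass in either arm. The summed level of the 14 fibroblast markers lay between 66278 and 84660 in control vehicle and between 93401 and 156722 in knockout vehicle libraries, a ratio of means of 1.53 with no overlap. Under rapamycin it lay between 76249 and 97349 in control and between 97519 and 158097 in knockout libraries, a ratio of 1.35. The exact permutation test, two-sided, gave p = 0.00794 in each arm, the smallest that 5 against 5 libraries allow (adjusted p = 0.0423 over 16 tests of 8 lists). All 14 markers had a log2 difference above 0 under vehicle, with a median of 0.64, and 12 of 14 under rapamycin, with a median of 0.24; limma called none in either arm. Without Gsn, the actin-severing gelsolin gene, which gave most of the sum, the ratio under rapamycin was 1.26 (exact p = 0.0873). After adjustment, both fibroblast results passed only because the nerve and glia list under vehicle had the same exact p. Without its gene Scn7a, that list had an exact permutation p of 0.532 under vehicle. The fibroblast receptor gene Pdgfra averaged 769 ± 322 in control vehicle hearts (SD, n = 5) and 1581 ± 351 in knockout vehicle hearts, and Tcf21, a fibroblast transcription factor, 211 ± 23.8 and 261 ± 46.3.

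Set against the summed fibroblast markers of the same library, Sfrp1 was at 5.27 ± 0.504 per 1000 in control and 6.81 ± 0.472 per 1000 in knockout vehicle hearts (SD, n = 5), with the control libraries at up to 5.79 and the knockout libraries at 6.39 or more. Sfrp2 was at 1.38 ± 0.433 and 2.25 ± 0.574 per 1000 and Frzb at 1.44 ± 0.412 and 2.74 ± 1.10 per 1000, with overlap between the genotypes for both. Under rapamycin the control and knockout values per 1000 were 6.05 ± 0.946 and 7.28 ± 1.67 for Sfrp1, 1.37 ± 0.493 and 1.95 ± 0.526 for Sfrp2, and 2.02 ± 0.776 and 2.42 ± 0.347 for Frzb. The mean ratio was higher in knockout hearts in each arm for each of these genes, which were chosen for their rise. Of the other tested genes, Dkk3 was also higher in both arms. Sfrp5 went the other way, from 0.736 to 0.636 per 1000 under vehicle and from 1.28 to 0.694 under rapamycin. So did Wif1, from 2.67 to 2.17 and from 3.01 to 2.17. Gsn gave most of the sum, and the share of all genes whose ratios did not overlap was not computed. The part of the fibroblast markers in the differences of Sfrp1, Sfrp2 and Frzb was not tested.

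The summed level of the 5 atrial markers lay between 1358 and 6056 in control vehicle and between 4141 and 63604 in knockout vehicle libraries. It lay between 1521 and 34775 in control rapamycin and between 8105 and 58970 in knockout rapamycin libraries. Nppa gave most of the mean sum in each group, 3003 of 3263 in control vehicle and 17931 of 27975 in knockout vehicle hearts. The lowest Dkk3 value of knockout vehicle, 109, came from the library with the lowest atrial sum of its group, and the highest, 3346, from the one with the highest. Under vehicle the ratio of the mean sums was 8.57 (exact permutation p = 0.0238, adjusted p = 0.0952) and 38.6 without Nppa, the most abundant marker of the list, and under rapamycin 1.16 (exact permutation p = 0.786, adjusted p = 0.897), or 0.757 without Nppa. Bmp10, a growth factor of the atrium, was listed at 0 in all control rapamycin libraries and reached 1733 in a knockout library. The part of atrial transcripts in the genotype difference of Dkk3 was not tested.

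Of 78 other Wnt pathway genes listed by role, 55 were tested, and limma called none of them in knockout against control hearts under vehicle, under rapamycin, or in the averaged comparison of rapamycin with vehicle. In those comparisons 0.244%, 0.0221% and 0.125% of all genes were called. At an unadjusted p under 0.05, 20 of the 55 genes (36.4%) differed between genotypes under vehicle, against 31.8% of all genes tested. Under rapamycin 3 did (5.45% against 2.97%), and 8 did in the averaged rapamycin comparison (14.5% against 9.23%). The median log2 difference between genotypes under vehicle was 0.21 over the 55 genes and 0.07 over all genes tested.

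Of 19 Wnt ligands, 9 were tested. Wnt5a, the ligand best known for signalling without beta-catenin, was at 314 in control and 307 in knockout vehicle hearts (log2 difference -0.09, adjusted p = 0.817). Wnt9a had a log2 difference of 0.23 (adjusted p = 0.483), and Wnt11, which also acts outside the beta-catenin branch, was at 137 and 87.8 (-0.63, SE 0.17, adjusted p = 0.0847). Wnt11 was called lower after quantile normalization, the only one of the 11 alternatives other than single libraries left out that called a pathway gene under vehicle. With 1 library left out, 10 of the 55 (18.2%) were called without control vehicle 5, where 22.8% of all genes were called. Without knockout vehicle 5 the count was 9 (16.4%, against 18.9% of all genes), without control vehicle 4 it was 2 (3.64% against 2.53%), and in the other 17 fits it was 0. These shares are near those of all genes.

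Of 15 receptors and coreceptors, 14 were tested, and 13 had a log2 difference above 0 under vehicle, with a median of 0.22, while 56.5% of all genes tested lay above 0. After quantile normalization, which moved the median of all genes by -0.12, 9 of the 14 lay above 0, beside 46.5% of all genes, and after median-ratio rescaling 10 did, beside 51.7%. Under rapamycin 12 of the 14 lay above 0 with each scaling. The share of all genes there was 44.3%, or 48.9% after quantile normalization and 47.3% after median-ratio rescaling. Of the other roles under vehicle, 4 of 9 ligands, 2 of 4 other inhibitors, 2 of 5 in the R-spondin group, 10 of 15 transducers and 6 of 8 induced targets lay above 0. By limma, the coreceptors Lrp5 and Lrp6 had values of 0.24 (adjusted p = 0.326) and 0.80 (adjusted p = 0.118). The receptor gene Ryk had 0.05 (adjusted p by limma = 0.661). Of other extracellular inhibitors, 4 of 10 were tested. Kremen1, the receptor that works with Dickkopf proteins, was at 3376 and 4204 in control and knockout vehicle hearts (log2 difference 0.36, adjusted p = 0.182), Apcdd1, a membrane inhibitor, at 84.2 and 119 (0.53, adjusted p = 0.180) and the sclerostin gene Sost at 12.9 ± 3.20 and 26.4 ± 32.9 (SD, n = 5). The knockout libraries of Sost ran from 0 to 83 with a median of 14.4, and its log2 difference was -0.07 (adjusted p = 0.966), so the means and the log2 values point in different directions. Of the R-spondins with their receptors and ligases, 5 of 9 were tested, and the receptors Lgr4 and Lgr6 and the ligase gene Znrf3 had log2 differences of -0.14, -0.17 and 0.05 (adjusted p = 0.381, 0.568 and 0.851).

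Of 16 transducers, 15 were tested. Ctnnb1, beta-catenin, was at 9208 and 11234 in control and knockout vehicle hearts (log2 difference 0.31, adjusted p = 0.127), and the kinase genes Csnk1a1 and Gsk3a had -0.05 (adjusted p = 0.708) and -0.13 (adjusted p = 0.213). Of 9 genes known as targets that Wnt signalling induces, 8 were tested, with a median of 0.44 under vehicle and -0.13 under rapamycin. After quantile normalization these medians were 0.22 and -0.10. Wisp2, a matricellular protein, was at 178 and 376 under vehicle (log2 difference 0.96, adjusted p = 0.0892) and had a log2 difference of 0.71 under rapamycin. Ccnd1, cyclin D1, had a log2 difference of 0.04 under vehicle (adjusted p = 0.911) and Myc -0.27 (adjusted p = 0.568). Axin2, the feedback inhibitor most often used to read the pathway, was named here after its values were seen. It was at 65.6 and 99.5 under vehicle (log2 difference 0.57, adjusted p by limma = 0.0930). Under rapamycin it was at 109 and 92.0 (log2 difference -0.21). Nkd2, also named after its values were seen, had log2 differences of 1.45 under vehicle (adjusted p by limma = 0.0785) and 0.46 under rapamycin. Of the 8 targets, 6 lay above 0 under vehicle and 3 under rapamycin.

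**Figure D4:**
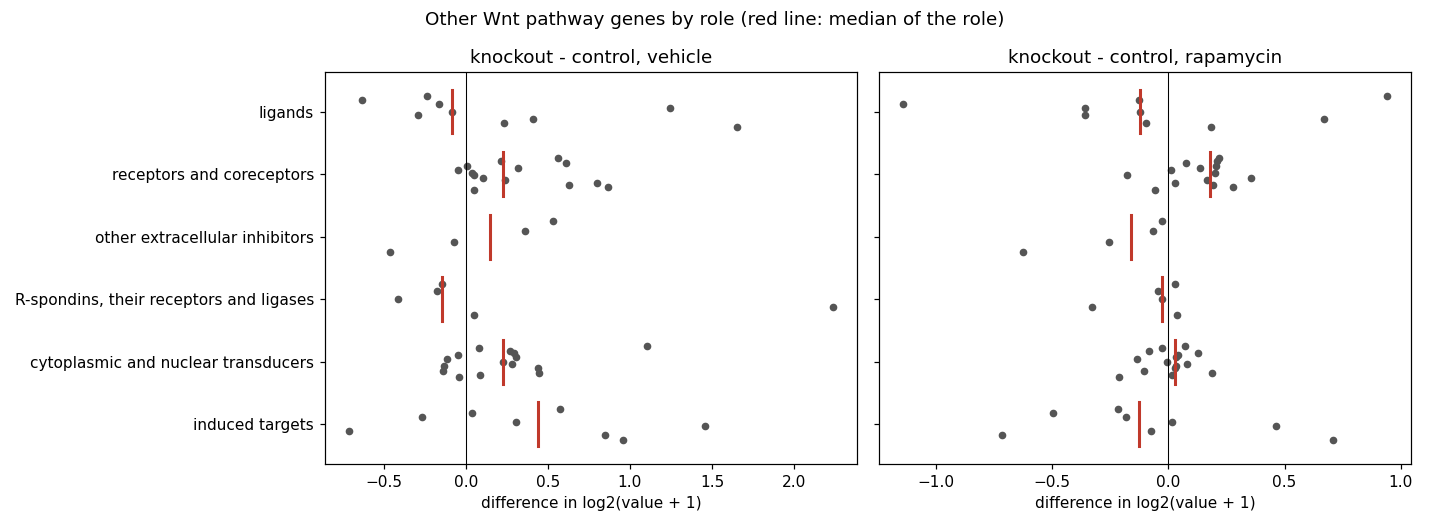
Difference in log2(value + 1), knockout minus control (horizontal axis), for the 55 tested pathway genes by role (rows), under vehicle on the left and under rapamycin on the right; points are genes and the red line is the median of the role. Under vehicle, 13 of 14 receptors lie right of 0 (9 after quantile normalization), as do 4 of 9 ligands, 2 of 5 genes of the R-spondin group and 56.5% of all genes tested, and the median of the induced targets is 0.44 under vehicle and -0.13 under rapamycin.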

How the data were processed

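The authors deposited a normalized expression signal per gene and library: RSEM estimates scaled so that the 75th percentile of values above 0 lay between 996.6 and 1000. Per the submitters' processing notes, Picard 1.64, SAMtools, RSEM and mouse build mm9 were used; the aligner is not given in the sources used here. Low values were whole multiples of 1 step within 0.05 reads in 87.8% to 89.4% of cases, too few to recover reads. Values were fitted as log2(value + 1) with limma 3.58.1 in R 4.3.3, with 1 mean per group over all 20 libraries, an intensity trend and Benjamini-Hochberg adjustment at 0.05. The fit was tested on simulated data. Marker sums were compared with exact permutation tests, and relations between library deviations with 100000 permutations within groups (SciPy 1.17.1).

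The members, gene lists and tests were chosen with earlier results of these data known. Named are the members, up to 3 of the most abundant tested pathway genes per role and any called. The 3 genes most alike to each member, Acsl1 and markers are also named, as are Axin2 and Nkd2 after their values were seen. The submitters' design text calls the 5 libraries of a group biological replicates. Alternatives were other pseudocounts, filters, scalings, a pool term, the replicate block, robust weights, only the groups compared, and libraries left out. Intervals and tests cover the spread between libraries.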

Additional observations from a re-analysis of the deposited data

Results flagged for a closer look

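In knockout rapamycin library 2, Dkk3 was at 3372 and Sfrp5 at 185, each far above the other 4 libraries of the group, which had Dkk3 values of 180 to 1043 and Sfrp5 values of 37.8 to 79.0. The gap to the next library was more than 0.71 of the group's range for both genes. Of 24 sets of 5 libraries examined (6 genes in 4 groups), these 2 were set apart in this way. Chance sets apart about 1 in 20 if values are normally distributed, but the gaps were taken on the linear scale. On the log2 scale less the group mean, Dkk3 was at 2.32 there, against -1.90 to 0.63 in the others. Sfrp5 was at 1.36, against -0.90 to 0.14. On this log2 scale the gap was below 0.71 of the group's range for both genes, so neither was set apart there. Both came from 1 library and from genes that varied together (r = 0.81), so they are not separate events to set against that rate. The same library had the highest summed level of atrial markers in its group, 58970, against 8105 to 10983 in the other 4. The part of atrial transcripts in these values was not tested.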

How the results depend on the processing

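The genotype differences of Sfrp1, Sfrp2 and Frzb were above 0 in each of 31 settings in both arms. They ran from 0.77 to 1.05, 1.04 to 1.49 and 1.29 to 1.70 under vehicle. Under rapamycin they ran from 0.48 to 0.82, 0.72 to 1.14 and 0.54 to 0.94. These genes were chosen for that rise in the same libraries, so the steady sign is no support for it. Several settings, such as another filter or a library of the other arm left out, cannot move these estimates. The difference under rapamycin turned for Sfrp5 (0.18) and Wif1 (0.099) with robust weights, for Wif1 without knockout rapamycin 4 (-0.57 to 0.25 with 1 library left out) and for Dkk3 without control rapamycin 3 (-0.023 to 1.19; 1.58 with robust weights). The averaged rapamycin effect of Sfrp2, near 0, turned after quantile normalization (-0.018), with robust weights (-0.033), without control vehicle 1 and 3 (-0.040) and with 6 single libraries left out (-0.068 to 0.15), and that of Wif1 without control vehicle 1 (-0.025 to 0.44). No member was called in the averaged comparison in any setting.

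The number of genes called over all genes, 33 under vehicle, was 56 with the pool term, 12 with robust weights, 3 with only the groups compared and 4 without control vehicle 1 and 3. It ranged from 8 to 3089 with 1 library left out (8 without control vehicle 1, 9 without 3, 343 without 4, 3089 without 5, 11, 8 and 2565 without knockout vehicle 1, 2 and 5, and 50 without knockout rapamycin 5). Under rapamycin it was 3, and 14 with robust weights. In the averaged rapamycin comparison it was 17, and 0 with the pool term, 5 with the replicate block, 35 with robust weights and 4 without control vehicle 1 and 3, and ranged from 3 to 17 with 1 library left out. Under quantile normalization the vehicle split was 25 higher and 22 lower, against 27 and 6, and the median of all genes moved by -0.12. The causes were not tested. Over all genes, same-numbered replicates were little alike: of 30 pairs, 10 had a correlation over 0.1 (median 0.03). Of 20 libraries, 4 were closest to their own number. The fibroblast markers differed from this. Their mean log2 level, less the group mean, was highest in replicate 5 of each group (0.30 and 0.41 in control and knockout vehicle, 0.22 and 0.64 under rapamycin). It was lowest in replicate 3 (-0.30, -0.45, -0.13 and -0.39 in the same order). The cause was not tested. With the replicate block, 49 genes were called under vehicle.

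Alternatives for the marker sums were chosen after seeing the data. The fibroblast ratio ranged from 1.39 to 1.60 under vehicle and 1.24 to 1.41 under rapamycin with 1 library left out, and was 1.26 under rapamycin without Gsn (exact p = 0.0873). The atrial ratio under vehicle was 11.9 without control vehicle 1 and 3 (exact p = 0.0714), 38.6 without Nppa and 5.84 to 10.9 with 1 library left out; under rapamycin it was 0.757 without Nppa and 0.551 to 1.60 with 1 library left out (0.961 and 0.942 without control rapamycin 3 and 4, 0.551 without knockout rapamycin 2). The nerve and glia ratio under vehicle was 1.22 without Scn7a (exact p = 0.532) and 1.46 to 1.73 with 1 library left out, and under rapamycin ranged from 1.27 to 1.49 with 1 library left out.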

Other observations

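The summed level of 6 nerve and glia markers lay between 425 and 845 in control vehicle and between 873 and 1052 in knockout vehicle libraries, a ratio of means of 1.57 with no overlap (exact permutation p = 0.00794, adjusted p = 0.0423 over 16 tests). Scn7a, a sodium channel of glia and other cells, gave most of the sum, at 450 ± 111 and 763 ± 45.4 (SD, n = 5). Without it the ratio was 1.22 (exact permutation p = 0.532). Under rapamycin the ratio was 1.36 (exact permutation p = 0.0714, adjusted p = 0.229).

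The other marker lists did not pass the test in either arm. The ratio of the mean sums, knockout over control, was 0.956 under vehicle and 1.18 under rapamycin for 7 epicardial markers, 0.901 and 0.842 for 5 smooth muscle markers, 1.11 and 1.04 for 6 endothelial markers, 1.08 and 1.05 for 6 macrophage markers, and 0.936 and 0.987 for 8 cardiomyocyte markers (exact permutation tests, adjusted p between 0.804 and 0.897).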
